A study of Homo sapiens with 2 samples.

Results

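Genes of the mitochondrial carrier family and of the mitochondrial protein import machinery were followed in Huh7 cells, a human hepatoma cell line, after knockdown of the transcription factor E2F6. The 77 rows were those in both expression tables whose gene name began with SLC25A, TIMM or TOMM and a number and held no hyphen, out of 21225 genes. They comprised 48 SLC25A rows and 29 TIMM and TOMM rows. Of these, 10 rows were pseudogenes named after members and 1 was a second TIMM10B row, listed under an identifier with no match in GENCODE release 29, which left 42 carriers and 24 import genes. Total RNA was sequenced as 2 libraries, 1 from Huh7 cells with a control shRNA and 1 from Huh7 cells with an shRNA against E2F6. The labels name neither the shRNA sequences, the time after transfection nor whether the cells were a clone or a pool. Values are FPKM, fragments per kilobase of transcript, scaled to library size. There were no replicates, so every difference is between these 2 libraries and carries no p-value. Pairs of values give the control library first.

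Mitochondria make few of their own proteins, and the rest are synthesised in the cytosol and imported. Precursors enter through the TOM complex of the outer membrane, whose pore is TOMM40. Small TIM proteins escort hydrophobic precursors across the intermembrane space to the TIM22 complex, while precursors with a cleavable presequence pass through the TIM23 complex and are drawn into the matrix by a motor held at TIMM44. SLC25 carriers are among the main clients of the TIM22 route. They exchange nucleotides, phosphate, carboxylates, amino acids, cofactors and iron across the inner membrane, and in liver cells they link the urea cycle, gluconeogenesis, fatty acid oxidation and lipid synthesis to the matrix.

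E2F6, a repressor of the E2F family, had 2.54 FPKM in the control library against 0.997 FPKM after knockdown, a ratio of 0.393 (95% counting interval 0.258 to 0.593). Its difference in log2(FPKM + 1) of -0.82 was itself short of the rule of size used below. GENCODE names 4 processed pseudogenes after E2F6, so its values are uncertain. The spacing of the values implied scaling totals of 17139209 and 14724835 fragments, from which fragments per gene were estimated, and intervals cover counting error only. All 10 hepatocyte and hepatoma markers were above 1 FPKM, with differences in both directions, 4 above 0 and 6 below. ALB (albumin) at 173 and 77.6 FPKM and APOB at 318 and 138 FPKM were lower by the rule of size used below, and HNF4A, a hepatocyte transcription factor, at 4.56 and 15.3 FPKM was higher by it. Summed levels in this order were 42.1 and 63.1 FPKM for 7 fibroblast and stellate markers, 242 and 135 FPKM for 4 macrophage markers, of which LYZ made up 240.1 and 133 FPKM, 1.53 and 2.83 FPKM for 1 endothelial marker and 9.93 and 7.84 FPKM for 2 T and B cell markers. None of these markers was at 0 in both libraries. ACTA2 of the fibroblast list and CD79A of the T and B cell list were at 0 in the control library. Their part in the results below was not tested, and in bulk RNA fewer cells of a kind and less RNA per cell cannot be told apart.

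No carrier or import gene differed between the libraries by the rule of size, a difference in log2(FPKM + 1) of at least 1 in either direction at a mean of at least 1 FPKM. Of the 77 rows 58 reached that mean, and 0 were higher and 0 lower by the rule, against 1.17% of 11574 genes higher and 2.06% lower. At a 1.5-fold threshold, set on FPKM + 1, 1 row, TOMM22, was higher and 7 were lower, against a background of 5.05% and 9.33%. The 7 were SLC25A32, SLC25A20, TIMM17A, TOMM34, SLC25A40, SLC25A36 and the pseudogene TIMM8AP1. The largest difference in size among all rows at that mean was the -0.97 of SLC25A32. With the trend of all genes with GC content removed it was -0.61, and TOMM34 (-0.91) and SLC25A20 (-0.90) were further from 0.

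Among the 55 carriers and import genes at a mean of 1 FPKM or more, 30 had a difference above 0 and 25 below, and the median was 0.08. Over all 11574 genes 49.7% were above 0 and 50.3% below, with a median of -0.0021. The quartiles of the 55 were -0.19 and 0.24, and those of all genes -0.28 and 0.23. Of the 55, 58.2% differed by less than 0.25 in size, against 49.2% of all genes. The counting interval of the FPKM ratio lay above 1 for 14 of them and below 1 for 10, where 20.9% and 23.5% of 11527 genes did so. The summed level of the 42 carriers was 503 FPKM in the control against 546 FPKM after knockdown, and that of the 24 import genes 597 and 659 FPKM. The sum over all genes was higher as well, at 235513 and 245097 FPKM.

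**Figure D1:**
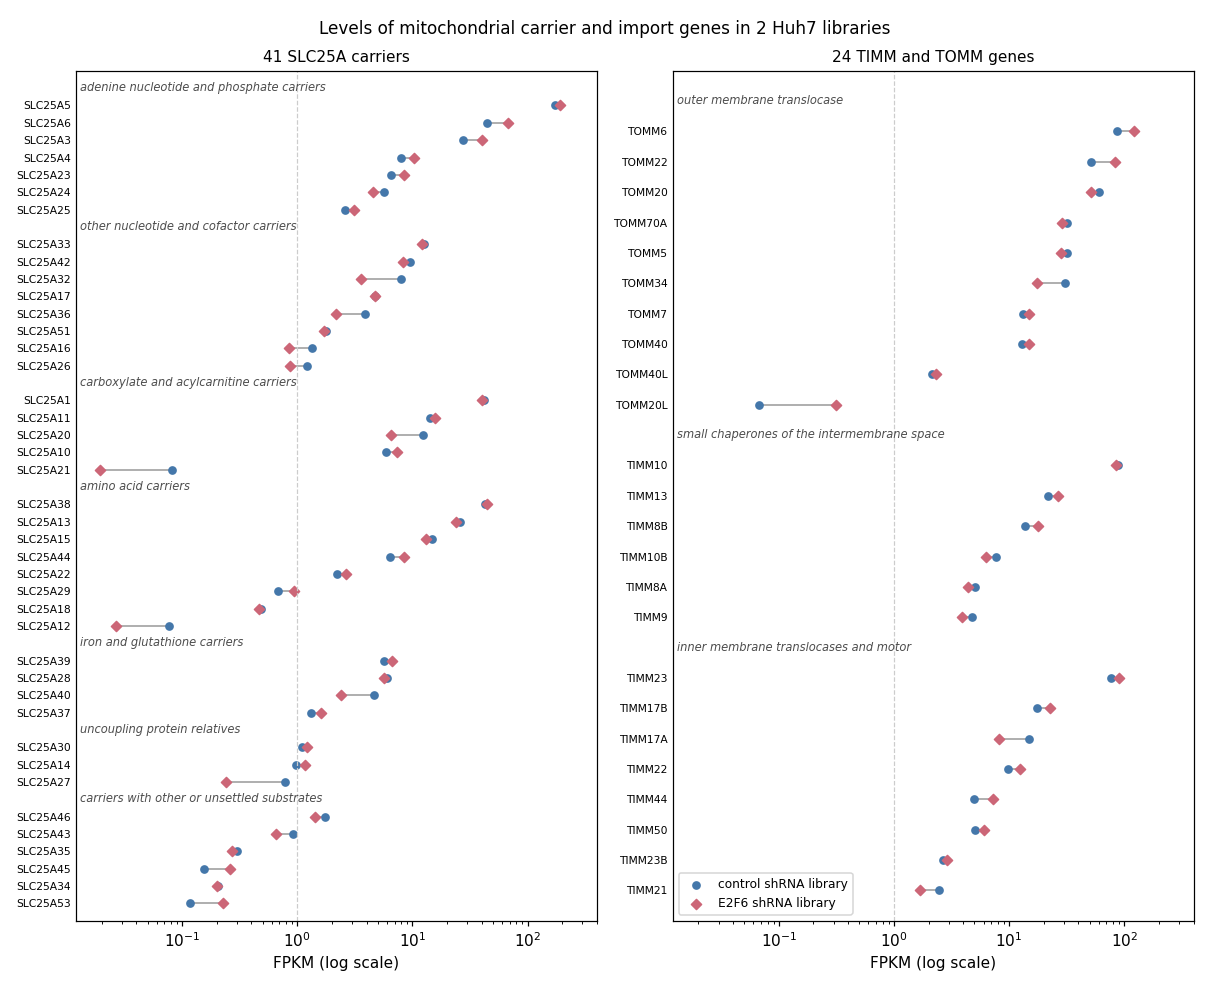
FPKM of 41 carriers (left) and 24 import genes (right) on a log axis, grouped by role, with a circle for the control shRNA library and a diamond for the E2F6 shRNA library. The 2 marks of most genes lie close together; the widest gaps are in genes under 1 FPKM (dashed line), and above it in SLC25A32, at 7.998 and 3.60 FPKM.

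Promoter letters are shown for 6 genes that the results below return to, as the 250 bases before the transcription start in RefSeq on GRCh38.p14. SLC25A3 and SLC25A17 are the 2 members above 1 FPKM with letters of an E2F site. SLC25A36 and TOMM20 hold an E-box, and SLC25A36 was picked for the lowest difference of the members with one. TIMM17A and TIMM17B are the pair whose levels parted most. Capitals mark GGCGGGAA (E2F), CACGTG (the E-box bound by MYC, MAX and MGA, the last a partner of E2F6) and CCGGAAGT (ETS factors, among them GABPA), each on either strand.
SLC25A3 (chr12:98593436-98593685, plus strand): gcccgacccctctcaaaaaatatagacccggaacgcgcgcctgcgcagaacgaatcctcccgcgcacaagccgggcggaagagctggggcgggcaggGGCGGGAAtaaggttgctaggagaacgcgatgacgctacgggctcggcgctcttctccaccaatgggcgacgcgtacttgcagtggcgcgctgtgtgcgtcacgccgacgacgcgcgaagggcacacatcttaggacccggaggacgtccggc
SLC25A17 (chr22:40819347-40819596, minus strand): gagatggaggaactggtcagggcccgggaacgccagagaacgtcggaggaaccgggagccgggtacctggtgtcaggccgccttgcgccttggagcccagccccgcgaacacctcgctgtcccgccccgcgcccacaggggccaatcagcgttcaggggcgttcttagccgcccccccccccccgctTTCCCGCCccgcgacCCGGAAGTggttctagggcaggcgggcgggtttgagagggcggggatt
SLC25A36 (chr3:140941586-140941835, plus strand): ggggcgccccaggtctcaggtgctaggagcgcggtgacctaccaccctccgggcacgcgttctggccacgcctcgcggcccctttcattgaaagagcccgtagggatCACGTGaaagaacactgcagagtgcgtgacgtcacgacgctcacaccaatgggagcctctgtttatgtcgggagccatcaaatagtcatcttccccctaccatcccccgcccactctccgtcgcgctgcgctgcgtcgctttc
TOMM20 (chr1:235128838-235129087, minus strand): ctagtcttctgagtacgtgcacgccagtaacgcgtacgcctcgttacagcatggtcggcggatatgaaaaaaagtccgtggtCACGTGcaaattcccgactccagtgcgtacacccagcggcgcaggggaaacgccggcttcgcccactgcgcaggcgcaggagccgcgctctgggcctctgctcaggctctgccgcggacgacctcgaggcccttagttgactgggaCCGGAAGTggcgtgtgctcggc
TIMM17A (chr1:201955253-201955502, plus strand): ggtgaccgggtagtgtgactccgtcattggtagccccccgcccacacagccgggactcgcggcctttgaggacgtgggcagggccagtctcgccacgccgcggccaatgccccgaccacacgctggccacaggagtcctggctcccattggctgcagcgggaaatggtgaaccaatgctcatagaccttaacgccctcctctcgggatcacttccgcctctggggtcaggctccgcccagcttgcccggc
TIMM17B (chrX:48897769-48898018, minus strand): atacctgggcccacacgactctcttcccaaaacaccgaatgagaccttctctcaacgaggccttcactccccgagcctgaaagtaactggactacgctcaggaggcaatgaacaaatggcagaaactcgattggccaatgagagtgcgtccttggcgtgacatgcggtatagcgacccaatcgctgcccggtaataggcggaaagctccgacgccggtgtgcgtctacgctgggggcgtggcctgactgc

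Of the 66 genes 58 had a promoter in the table, 67 promoters in all. GGCGGGAA stood in 3 of them (4.48%), those of SLC25A3, SLC25A17 and SLC25A45, against 2.72% of all 35093 promoters and 4.46% of the 11016 promoters of protein-coding genes at a mean of 1 FPKM or more. CACGTG stood in 8 (11.9%, against 6.34% and 8.52%) and CCGGAAGT in 9 (13.4%, against 3.43% and 7.04%). The consensus palindrome of NRF1 stood in none of the 67, against 1.03% and 1.79%. E-box and ETS letters were added to the search after the E2F and NRF1 letters. In the printed promoters no 2 matches overlapped. The median difference of the 8 genes with CACGTG was -0.14, with 1 of them above 0, and that of the 40 without it was 0.14, with 25 above 0. The 8 were SLC25A13, SLC25A26, SLC25A33, SLC25A36, SLC25A38, SLC25A46, SLC25A51 and TOMM20. The median GC content of their transcripts was 45.5%, against 52.6% for the 40 others. Transcript GC content went with the difference across all genes (below), and with that trend removed, a comparison added after the data were seen, the medians were -0.027 (4 of 8 above 0) and 0.053 (26 of 40). The 9 genes with CCGGAAGT, 3 of which also hold CACGTG, had a median of -0.18 with 2 above 0, against 0.14 with 24 of 39 above 0, and with the trend removed the medians were 0.083 (6 of 9 above 0) and 0.042 (24 of 39). A match describes letters and is not evidence of a bound site.

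The carriers of adenine nucleotides and phosphate held the most abundant member, SLC25A5, and 6 of the 7 had a difference above 0, with a median of 0.34 (0.20 with the GC trend of all genes removed, where all 7 were above 0). SLC25A5, the ADP/ATP carrier of proliferating cells, was the highest of all members at 172 FPKM in the control against 191 FPKM after knockdown. SLC25A6, a second ADP/ATP carrier, was at 44.8 and 67.3 FPKM, a ratio of 1.5003 (1.38 to 1.63). SLC25A4, the form of heart and muscle, was at 7.92 and 10.3 FPKM. All 3 were thus higher in the E2F6 shRNA library, SLC25A5 by the least, with a ratio of 1.11 (1.04 to 1.18). The difference of SLC25A5, 0.15, was 0.013 under quantile normalization and 0.055 with the GC trend removed. Its share of their summed level was 76.6% in the control against 71.1% after knockdown, and that of SLC25A6 19.9% and 25.1%. GENCODE names 9 processed pseudogenes after SLC25A5 and 6 after SLC25A6, so reads may be divided and both values are uncertain.

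SLC25A3 carries the phosphate that ATP synthesis consumes. It was at 27.4 FPKM in the control against 39.9 FPKM after knockdown, 1.46-fold higher (1.32 to 1.62). The E2F letters stand 153 bases before its start, and the promoters of SLC25A17 and SLC25A45 hold them too. A link between these letters and the levels was not tested. The ATP-Mg/phosphate carriers, which adjust the adenine nucleotide pool of the matrix and respond to calcium, did not move as one. SLC25A23 was at 6.47 and 8.51 FPKM and SLC25A25 at 2.59 and 3.11 FPKM, while SLC25A24 was at 5.67 and 4.57 FPKM. SLC25A24 was the 1 member of this role below 0 (-0.26), and its interval of 0.677 to 0.957 lay below 1. Its difference was 0.06 with the GC trend removed.

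Carriers of other nucleotides and cofactors leaned the other way, with 7 of 9 below 0 and a median of -0.20 (-0.085 with the GC trend removed). SLC25A32, which brings folate, and by other accounts FAD, into the matrix, was at 7.998 FPKM in the control against 3.60 FPKM after knockdown. It was 2.22-fold lower (1.79 to 2.79), with about 293 and 113 fragments behind the values, and the pseudocount of 1 kept it at -0.97, just short of the rule. It shares 11.1% of its exon bases with DCAF13 on the opposite strand, at 4.94 and 3.36 FPKM, and since strand was not stated such reads cannot be told apart. SLC25A36, a pyrimidine nucleotide carrier, was at 3.89 and 2.15 FPKM, 1.81-fold lower (1.29 to 2.62). SLC25A33, the other pyrimidine nucleotide carrier, was nearly level at 12.6 and 12.2 FPKM, a ratio of 0.962 (0.868 to 1.07). The share of SLC25A36 in the sum of both was 23.5% in the control against 15.02% after knockdown, and both genes hold CACGTG in their promoters.

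SLC25A42, a carrier of coenzyme A, was at 9.59 and 8.25 FPKM, and SLC25A16, linked to coenzyme A as well, at 1.33 and 0.845 FPKM. SLC25A26, which imports S-adenosylmethionine, was at 1.20 and 0.872 FPKM and SLC25A51, the NAD carrier, at 1.78 and 1.70 FPKM. The intervals of these 4 genes included 1. SLC25A17, a carrier of peroxisomes, was at 4.72 FPKM in both libraries (difference 0.00055, ratio interval 0.738 to 1.36). Its promoter holds both E2F and ETS letters.

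Among the carboxylate and acylcarnitine carriers 1 gene stood apart. SLC25A20, the carnitine-acylcarnitine carrier that admits fatty acids for oxidation, was at 12.4 FPKM in the control against 6.48 FPKM after knockdown, 1.91-fold lower (1.55 to 2.36). Its transcripts have a GC content of 50.0%, and its difference of -0.84 was -0.90 with the GC trend removed. SLC25A1, the citrate carrier that feeds lipid synthesis, was at 41.7 and 40.2 FPKM, and SLC25A11, the oxoglutarate carrier, at 14.2 and 15.7 FPKM. SLC25A10, the dicarboxylate carrier, was at 5.85 and 7.31 FPKM. The intervals of all 3 included 1, and the oxoadipate carrier SLC25A21 stayed under 0.1 FPKM in both libraries, under the level of 3 fragments.

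The amino acid carriers differed little, and 4 of the 5 above 1 FPKM had intervals that included 1. SLC25A38, the glycine carrier needed for haem synthesis, was highest at 42.6 and 44.5 FPKM. SLC25A13 (citrin), the aspartate/glutamate carrier of liver, was at 25.99 and 24.1 FPKM, while SLC25A12, the form of brain and muscle, was at 0.0766 and 0.0267 FPKM. Citrin thus made up 99.7% of their summed level in the control and 99.9% in the E2F6 shRNA library. SLC25A15, the ornithine carrier of the urea cycle, was at 14.7 and 13.03 FPKM. SLC25A44, a carrier of branched-chain amino acids, was the member whose interval excluded 1, at 6.40 and 8.51 FPKM, a ratio of 1.33 (1.14 to 1.55). SLC25A22, a glutamate carrier, was at 2.22 and 2.67 FPKM, and SLC25A18 and SLC25A29 were under 1 FPKM in both.

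In the iron and glutathione role the members of a pair parted. SLC25A40 was at 4.64 FPKM in the control against 2.42 FPKM after knockdown, 1.92-fold lower (1.31 to 2.93), and its close relative SLC25A39, which imports glutathione, was at 5.70 and 6.64 FPKM (ratio 1.17, 0.881 to 1.54). SLC25A40 made up 44.9% of their summed level in the control and 26.7% in the E2F6 shRNA library. The GC content of their transcripts was 37.1% for SLC25A40 and 62.4% for SLC25A39, and with the GC trend removed their differences of -0.72 and 0.19 were -0.25 and 0.04. The mitoferrins, which bring iron into the matrix, were near level, SLC25A28 at 6.01 and 5.66 FPKM and SLC25A37, the form of erythroid cells, at 1.33 and 1.60 FPKM.

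The remaining carriers were low. Of the relatives of the uncoupling proteins SLC25A14 was at 0.966 and 1.16 FPKM and SLC25A30 at 1.09 and 1.22 FPKM. SLC25A27 was at 0.775 and 0.238 FPKM with about 15 and 4 fragments, a ratio of 0.307 (0.075 to 0.974) at a mean under the minimum of 1 FPKM. SLC25A46, an outer membrane protein that takes part in mitochondrial dynamics, was at 1.76 and 1.43 FPKM (-0.18, and 0.26 with the GC trend removed). SLC25A34, SLC25A35, SLC25A43, SLC25A45 and SLC25A53 were under 1 FPKM in both libraries, and their intervals included 1.

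**Figure D2:**
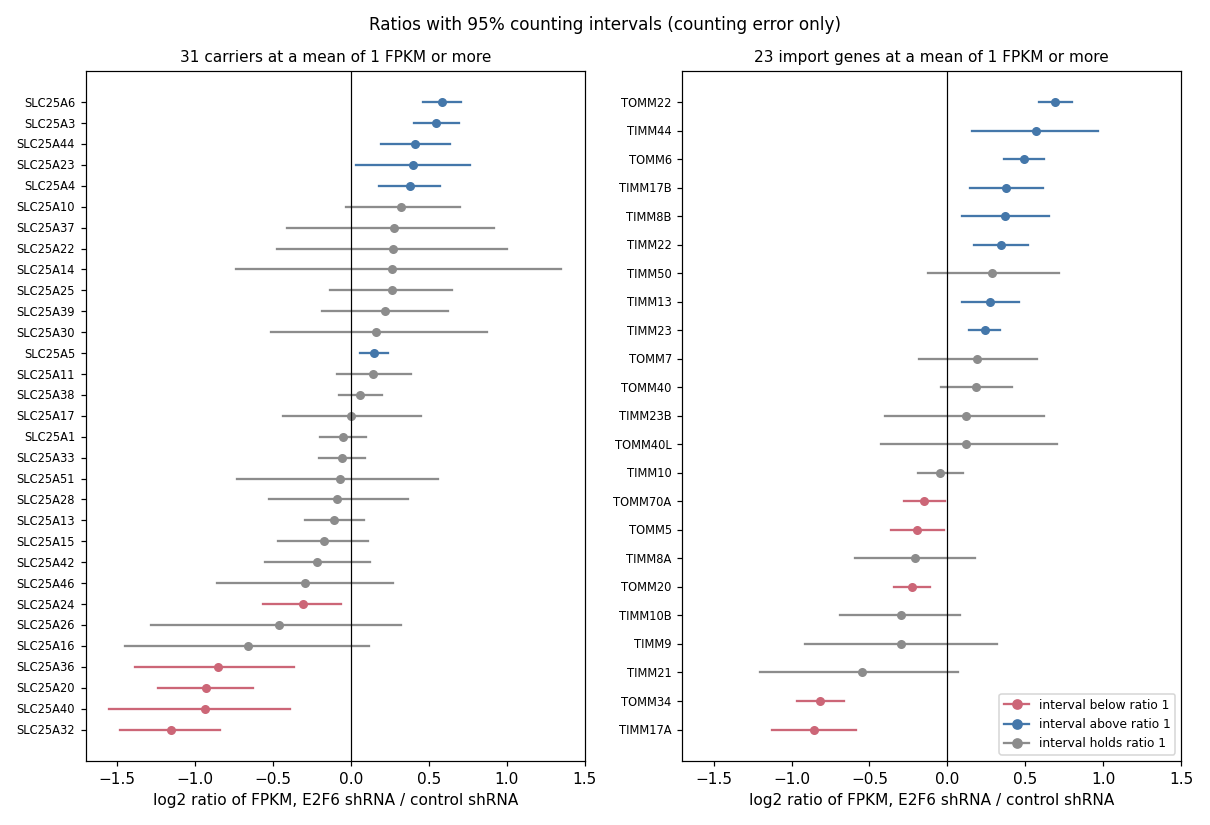
Ratio of FPKM, E2F6 shRNA over control shRNA, on a log2 axis for 31 carriers (left) and 23 import genes (right) at a mean of at least 1 FPKM, with 95% counting intervals that cover counting error only. Intervals of SLC25A32, SLC25A40, SLC25A20, SLC25A36, TIMM17A and TOMM34 lie well below ratio 1, and those of TOMM22, TOMM6, SLC25A6 and SLC25A3 well above it.

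In the TOM complex the receptor genes went in different directions. TOMM22, the central receptor that docks TOMM20 and organises the pore, was at 51.9 FPKM in the control against 83.8 FPKM after knockdown, 1.61-fold higher (1.501 to 1.74), the highest difference of all members at 0.68. TOMM20, the receptor for presequences, was at 60.2 and 51.5 FPKM, a ratio of 0.855 (0.789 to 0.927). TOMM70A, the receptor for carrier precursors (now TOMM70), was at 31.9 and 28.8 FPKM, a ratio of 0.902 (0.824 to 0.988). With the GC trend removed the differences of TOMM20 and TOMM70A, -0.22 and -0.14, were 0.083 and 0.28, their transcripts having GC contents of 41.1% and 38.2%. TOMM20 holds both E-box and ETS letters. GENCODE names 6 processed pseudogenes after TOMM22 and 4 after TOMM20, so these values are uncertain.

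The pore gene TOMM40 was at 13.03 and 14.8 FPKM (ratio 1.14, 0.973 to 1.33), and its relative TOMM40L at 2.14 and 2.32 FPKM. The small subunits that steady the complex were not alike. TOMM6 was at 86.2 and 121 FPKM, 1.41-fold higher (1.29 to 1.54), TOMM7 at 13.1 and 14.9 FPKM and TOMM5 at 32.1 and 28.1 FPKM. All exon bases of TOMM6 are shared with PRICKLE4 on the same strand, at 1.86 and 2.55 FPKM, so the level of TOMM6 is uncertain. TOMM5 shares 9.33% of its exon bases with an RNA gene on the same strand that was at 3.35 and 0.575 FPKM. TOMM34, a cytosolic cochaperone that binds precursors, has 1 annotated transcript, so its fragments could be read from the values as 1092 and 533. It was at 30.9 FPKM in the control against 17.6 FPKM after knockdown, 1.76-fold lower (1.59 to 1.96), and its difference of -0.78 was -0.91 with the GC trend removed. TOMM20L rested on about 1 and 2 fragments.

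The small TIM chaperones, which work as hexamers, moved by at most 0.35 in size. TIMM10 was at 88.4 and 85.7 FPKM and TIMM9, its partner in the main hexamer, at 4.80 and 3.91 FPKM, both with intervals that included 1. TIMM13 was at 21.9 and 26.5 FPKM (ratio 1.21, 1.07 to 1.37), but 13.03% of its exon bases lie in LMNB2 on the same strand, at 29.8 and 45.3 FPKM, which leaves the level of TIMM13 uncertain. TIMM8B, a partner of TIMM13, was at 13.8 and 17.7 FPKM (1.29, 1.07 to 1.57), while TIMM8A, the other partner, whose loss causes a deafness-dystonia syndrome, was at 5.10 and 4.41 FPKM (0.865, 0.664 to 1.13). TIMM8A made up 27.1% of the sum of both TIMM8 genes in the control and 19.9% in the E2F6 shRNA library. TIMM8B shares 30.1% of its exon bases with C11orf57 on the opposite strand, at 1.11 and 1.17 FPKM. TIMM10B, which ties the hexamer to the TIM22 complex, was at 7.72 and 6.28 FPKM.

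Of the 8 genes of the inner membrane translocases and motor 6 had a difference above 0, and the lowest and the second highest difference belonged to related subunits of the same channel. TIMM17A was at 14.8 FPKM in the control against 8.18 FPKM after knockdown, 1.81-fold lower (1.504 to 2.18). TIMM17B, which can take its place in the TIM23 complex, was at 17.4 and 22.7 FPKM, 1.299-fold higher (1.10 to 1.53). Their sum was nearly level, 32.3 and 30.8 FPKM, but the share of TIMM17A was 45.9% in the control against 26.5% after knockdown. The GC content of their transcripts was 42.7% and 59.1%, and with the GC trend removed their differences of -0.79 and 0.36 were -0.55 and 0.21. Neither printed promoter holds any of the letters searched.

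TIMM23, the channel itself, was at 76.1 and 89.8 FPKM (ratio 1.18, 1.10 to 1.26), with 1594 and 1615 fragments read from its 1 transcript. Its near copy TIMM23B was at 2.68 and 2.91 FPKM, and how reads were split among the copies is uncertain. TIMM44, which anchors the motor, was at 4.91 and 7.28 FPKM, 1.48-fold higher (1.11 to 1.95), the highest difference of this role at 0.49. TIMM50, the receptor of the TIM23 complex, was at 5.01 and 6.10 FPKM and TIMM21, which links it to the TOM complex, at 2.48 and 1.70 FPKM, both with intervals that included 1. TIMM22, the channel for carrier precursors, was at 9.88 and 12.5 FPKM (1.27, 1.13 to 1.43).

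**Figure D3:**
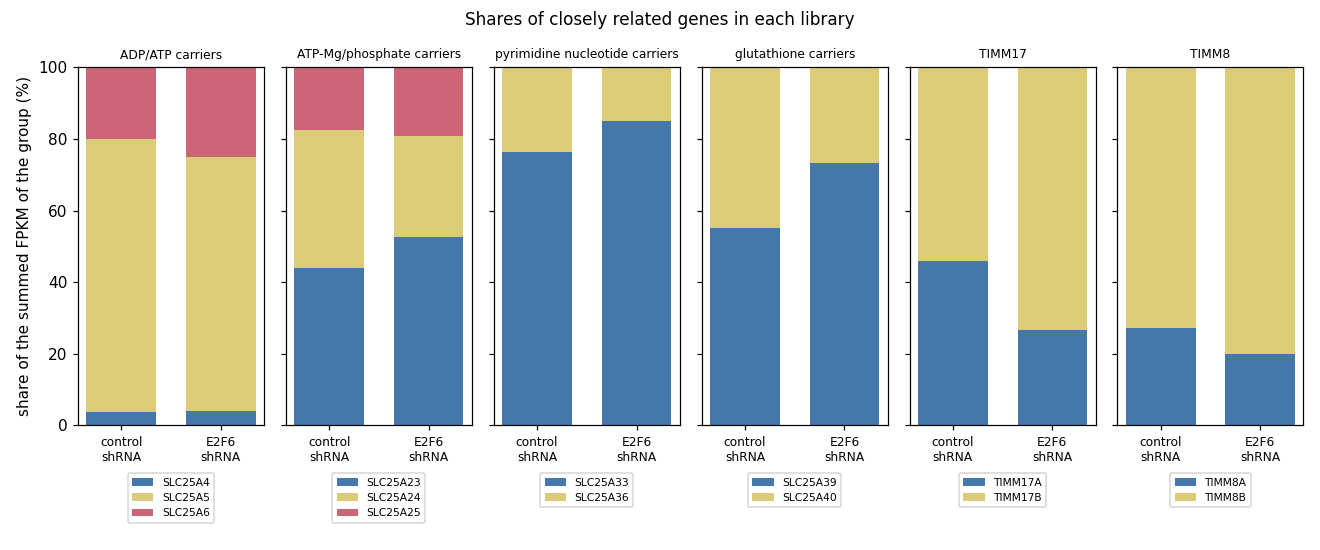
Share of each gene in the summed FPKM of 6 groups of closely related genes, as stacked bars that reach 100% in each library. The share of TIMM17A was 45.9% in the control against 26.5% after knockdown, that of SLC25A40 44.9% and 26.7%, and the ADP/ATP carriers differed less.

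Of the 10 pseudogenes named after members 3 reached a mean of 1 FPKM. TOMM20P4 was at 8.85 and 8.43 FPKM, TIMM8BP2 at 3.49 and 3.25 FPKM and TIMM8AP1 at 1.58 and 0.691 FPKM, the last with 8 and 3 fragments and a ratio of 0.436 (0.0746 to 1.82). The other 7 were under 1 FPKM in both libraries. Intervals of all 10 included 1.

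Transcript GC content went with the differences of these genes much as it did over all genes. Across the 55 carriers and import genes the Spearman correlation between GC content and difference was 0.518 (Pearson 0.480), and across 9900 protein-coding genes 0.463 (0.394), as a description of genes that share the same 2 libraries. Split at the median GC content of protein-coding genes, 49.8%, 19 of the 27 members at or above it had differences above 0, against 11 of the 28 below it. For protein-coding genes these shares were 68.2% and 30.3%, and for the members 70.4% and 39.3%. Of the 6 genes lower at the 1.5-fold threshold 4 lay below the median GC content, the exceptions being SLC25A20 and TOMM34.

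**Figure D4:**
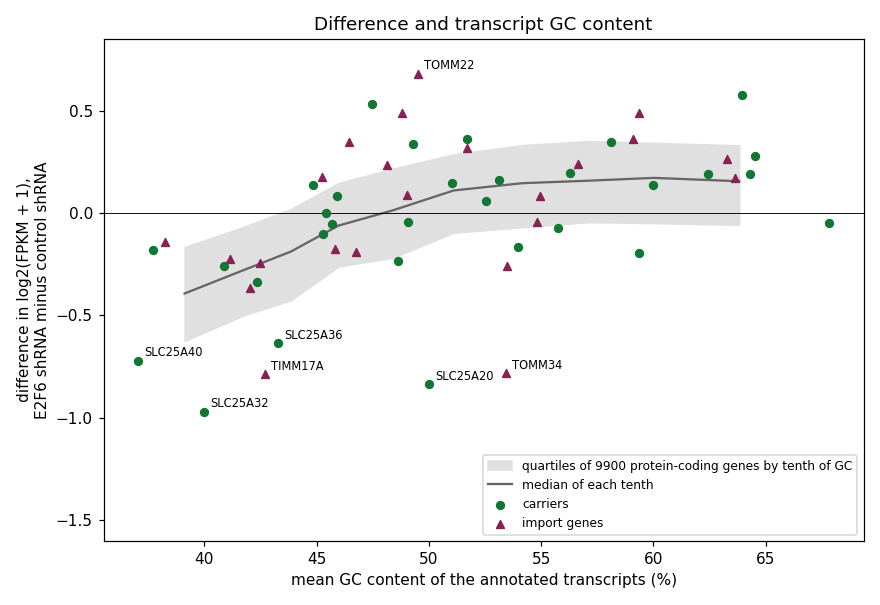
Difference in log2(FPKM + 1) between the libraries against the mean GC content of a gene's annotated transcripts, for 31 carriers (circles) and 23 import genes (triangles), over the median (line) and quartiles (band) of 9900 protein-coding genes by bin of GC content. SLC25A32, SLC25A36, TIMM17A, SLC25A20 and TOMM34 lie below the band. Points with smaller differences lie below it too, among them TIMM10B, SLC25A15 and SLC25A42. TOMM22 is the highest of the points above the band.

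Other genes of mitochondrial import, transport and biogenesis gave 39 genes at a mean of at least 1 FPKM out of 41 measured. Of these 0 were higher and 1 lower by the rule of size, against 1.17% and 2.06% of 11574 genes. At the 1.5-fold threshold 0 were higher and 5 lower, against 5.05% and 9.33%. Over the 39, 22 differences were above 0 and the median was 0.08. The 1 gene past the rule was a biogenesis factor, and each list of import and transport genes held 0. In the import motor GRPEL1, a nucleotide exchange factor of the matrix HSP70, was at 13.5 and 7.57 FPKM (1.78-fold lower, 1.48 to 2.14), and PAM16, a subunit at the channel, at 4.31 and 4.96 FPKM. In the sorting and assembly list SAMM50, the outer membrane assembly pore, was at 9.81 and 13.3 FPKM and MTX3 at 3.79 and 2.78 FPKM. Of the presequence processing genes IMMP2L was at 0.610 and 1.40 FPKM, on about 9 and 17 fragments (ratio interval 0.927 to 5.60). IMMP1L was at 4.55 and 3.37 FPKM (0.471 to 1.19). The matrix chaperonin genes were HSPD1 at 131 and 94.6 FPKM and HSPE1 at 59.0 and 53.1 FPKM. Of the porins and the pyruvate carrier VDAC2 had the lowest difference, at 16.9 and 9.94 FPKM (1.70-fold lower, 1.38 to 2.11), and MPC1 the highest, at 14.7 and 16.4 FPKM. The differences of carriers under other names ran from that of UCP1 to that of MTCH1. UCP1, the uncoupling protein of brown fat, was at 2.87 and 1.95 FPKM (ratio interval 0.453 to 1.007). MTCH1, a relative of the outer membrane insertase MTCH2, was at 23.9 and 33.6 FPKM (1.25 to 1.59).

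The gene past the rule of size was TFAM, 1 of the 7 biogenesis factors at a mean of at least 1 FPKM. TFAM packages mitochondrial DNA and starts its transcription. It was at 18.3 FPKM in the control against 6.95 FPKM after knockdown, 2.63-fold lower (2.25 to 3.09), and its difference of -1.28 was -0.94 with the GC trend removed, short of the rule. GABPA, an ETS factor of mitochondrial gene promoters chosen for mention after its values were seen, was at 4.65 and 1.84 FPKM. Its ratio interval was 0.312 to 0.502, and its difference of -0.99, short of the rule, was -0.61 with the GC trend removed. NRF1, another factor of mitochondrial gene promoters, had the highest difference of the biogenesis list, 0.15, at 3.60 and 4.11 FPKM (ratio interval 0.902 to 1.44).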

How the data were processed

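RNA-seq was deposited by the authors as 1 gene table per library, 1 for control shRNA and 1 for E2F6 shRNA. The deposited values were taken as FPKM from the values themselves, since the column headers name only the library. Per the submitters' processing notes the tools were HISAT2 2.0.4 and StringTie 1.3.0 and the build GRCh37; roles, annotation release and strand are not given in the sources used here. Of the 21227 rows in each file, 1 without a gene identifier and 1 without a value were dropped.

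For genes with 1 transcript in GENCODE release 29 (GRCh38, used for lengths, GC content, types and exon overlap), FPKM times length came in whole multiples of 1 step, within 0.01 of a fragment for 97.9% of 5455 and 97.9% of 5165 values. The step gave each library's scaling total. For other genes the mean transcript length was used, so their fragments and exact conditional binomial 95% intervals of the ratio are approximate. With no molecular identifiers, fragments may be copies of 1 molecule, and intervals cover counting error only. The difference is log2(FPKM + 1), E2F6 shRNA minus control shRNA, which understates the change of low genes. Folds are ratios of FPKM, except for the 1.5-fold threshold, which was set on FPKM + 1. No test between conditions was possible with 1 library per group, so genes were read by a rule of size (at least 1, mean FPKM of at least 1). The GC trend was a lowess fit with a span of 0.3 over 9900 protein-coding genes.

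Members, roles, gene lists and alternatives were chosen with earlier results of these data known. Named were E2F6, any member, and of each pathway list the genes past the rule or else those with the highest and lowest difference; LYZ and the genes at 0 in 1 library were named from the marker lists after their values were seen. Promoters are from RefSeq (GRCh38.p14), without the bases after the start; protein sequences were not used here. The step, the counting intervals and the rule of size were tested on simulated counts that took the same transcript lengths as the analysis. The simulation therefore could not test those lengths, and it did not cover the GC trend, the promoter letters or the exon overlaps. Computation used matplotlib 3.10.9, scipy 1.17.1, Python 3.11.15, statsmodels 0.14.6, pandas 2.3.3 and numpy 2.4.6. The values of 1 carrier are not reported here singly or drawn, though it stays in the counts and medians.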

Additional observations from a re-analysis of the deposited data

How the results depend on the processing

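No member passed the rule of size when values were centred on the median, quantile normalized or scaled by a trimmed-mean factor. The same held with the GC trend removed and with no minimum FPKM. Narrower sets could not alter this count, since they keep the same differences for fewer of the same rows. These sets were a mean of at least 5 FPKM, protein-coding genes, genes whose counting interval excluded 1, and members without named pseudogenes. A pseudocount of 0.1 put 2 members past the rule as lower, SLC25A32 (-1.13) and TIMM8AP1 (-1.09), and E2F6 at -1.27, because a pseudocount of 1 shrinks low values. A 1.5-fold threshold gave 1 higher and 7 lower. The median of the carriers, 0.03, was -0.014 with no minimum and -0.026 without genes with named pseudogenes, and that of the import genes, 0.09, was 0.21 over the smaller set with a mean of 5 FPKM or more. Medians of roles that changed sign were those of amino acid carriers (-0.021 at a mean of at least 5 FPKM, -0.015 under quantile normalization), carboxylate and acylcarnitine carriers (-0.050 with no minimum, -0.096 with the GC trend removed), iron and glutathione carriers (-0.094 with the GC trend removed, -0.074 without genes with named pseudogenes), carriers with other substrates (0.26 with the GC trend removed) and small chaperones (0.11 at a mean of at least 5 FPKM). With the GC trend removed 11 of the 55 genes changed sign, among them SLC25A11 (-0.016), SLC25A13 (0.0074), SLC25A24 (0.057), SLC25A46 (0.26), TIMM9 (0.0066), TOMM20 (0.083), TOMM70A (0.28), SLC25A33 (0.038), SLC25A38 (-0.062) and TOMM40L (-0.064). The cause was not tested. All scalings moved the median of all genes by less than 0.1. No paired analysis was possible because neither group holds a second library. Depth limited the lower genes: SLC25A40, on about 86 and 38 fragments, had an interval of 1.31 to 2.93-fold lower.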

Other observations

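TIMMDC1, an assembly factor of respiratory complex I whose name does not match the rule, had 10.2 FPKM in the control against 10.8 FPKM after knockdown (ratio interval 0.838 to 1.33). Antisense RNAs named after carriers were all under 1 FPKM. SLC25A25-AS1 was at 0.849 and 0.584 FPKM with about 93 and 55 fragments (ratio interval 0.484 to 0.971), while SLC25A25, with which it shares 13.5% of the exon bases of SLC25A25 on the opposite strand, was at 2.59 and 3.11 FPKM. SLC25A30-AS1 was at 0.0832 and 0.581 FPKM and SLC25A21-AS1 at 0.334 and 0.106 FPKM, on 11 fragments or fewer in each library.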
